A study of Homo sapiens with 19 samples.

Results

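TBXT, MIXL1, EOMES, GSC, MESP1, FOXA2, SOX17, GATA4 and GATA6 are transcription factor genes by which the primitive streak and its mesoderm and endoderm progeny are recognized. They are 9 of the 20503 genes named on the arrays. They were taken by name and not by a cut on their values, though earlier results of these data were known. All 9 had a probe, through 11 probes in all, and 6 of the 9 (TBXT, EOMES, GSC, FOXA2, SOX17 and GATA6) were called well above background by the scanner on all 19 arrays. MIXL1, MESP1 and GATA4 were called on 18.

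The samples were human embryonic stem cells (hESCs) of the line KhES-3, harvested during the first 72 h of induction toward brown adipocytes (BAs). Each time point had 1 one-colour Agilent array, on 3 slides: the first held 3, 4, 6, 8, 10 and 12 h, the second 14, 16, 20, 24, 28, 32, 36 and 42 h, and the third 48, 54, 60, 66 and 72 h. The labels state that the hESCs had grown on irradiated mouse embryonic fibroblasts with basic fibroblast growth factor, whereas the study's methods describe a feeder-free system. All samples were then held in low-attachment dishes in serum-free BA medium with IGF-II, BMP4, VEGFA, KITLG, FLT3LG and IL-6, so the time points share the line and the treatment, and neither untreated cells nor a 0 h sample is among them. Each time point is 1 array, the spread between cultures is therefore unknown, and these arrays of whole cultures cannot tell more cells of a type from more RNA per cell.

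In the embryo the primitive streak forms where NODAL, WNT and BMP signals meet, and the cells that pass through it become mesoderm or definitive endoderm. TBXT and MIXL1 mark the streak, EOMES acts in both lineages, GSC marks its anterior end, MESP1 the earliest cardiac and cranial mesoderm, and FOXA2 and SOX17 the endoderm. GATA4 and GATA6 work in endoderm, in cardiac mesoderm and in the extraembryonic endoderm. BMP4, one of the added cytokines, is widely used to drive hESCs toward streak and mesoderm in culture, and it can also drive them toward amnion- and trophoblast-like fates.

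Signals are the scanner's processed intensities, scaled so that the 75th percentile of every array is 871. On this scale, undifferentiated cell markers (POU5F1, NANOG, SOX2 and 6 more) passed the background call on every array. Their summed signal was 717275 to 718118 at 3, 4 and 6 h and 518025 to 545988 at 60, 66 and 72 h. Most of it was POU5F1 (mean 349263 at 3 to 6 h and 279829 at 60 to 72 h) and DNMT3B (181447 and 101131). By the limma slope described below 6 of the 9 fell, against 29.8% of genes tested, and NANOG, SOX2 and DPPA4 were not called. With the slide as a block 1 of these calls held (DNMT3B). Slide and time overlap in part. The share of probes well above background was lowest at 14 h (49.5%) and otherwise 52.0% to 64.7%. Spike-in RNA, control transcripts added to the samples, read higher against the 75th percentile at 66 and 72 h (4.74 and 4.75 log2) than on the other arrays (3.54 to 4.37), so a scaling to it lowers those arrays against the rest.

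The promoters of 4 members that were at least 2-fold higher at 66 h, a result given below, are shown as sequence, 250 bases before to 50 after the annotated start, from RefSeq on GRCh38.p14 and on the strand of the gene. MESP1, FOXA2, SOX17 and GATA4 are named only. TBXT has a pair of annotated starts, at chr6:166168606-166168905 (minus strand) and chr6:166167802-166168101 (minus strand). The window of MIXL1 is chr1:226223414-226223713 (plus strand), that of EOMES chr3:27722274-27722573 (minus strand) and that of GATA6 chr18:22169339-22169638 (plus strand). The EOMES window lies within the EOMES gene span given below, so the start used is not the one at the edge of that span. Capitals mark matches, on either strand, to the 8 motifs listed after the sequences.
TBXT, first start: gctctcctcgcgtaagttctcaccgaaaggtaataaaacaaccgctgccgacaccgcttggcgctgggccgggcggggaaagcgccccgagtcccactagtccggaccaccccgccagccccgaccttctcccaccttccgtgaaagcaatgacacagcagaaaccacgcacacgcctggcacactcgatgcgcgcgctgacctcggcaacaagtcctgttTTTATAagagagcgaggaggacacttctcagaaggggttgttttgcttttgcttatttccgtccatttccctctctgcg
TBXT, second start: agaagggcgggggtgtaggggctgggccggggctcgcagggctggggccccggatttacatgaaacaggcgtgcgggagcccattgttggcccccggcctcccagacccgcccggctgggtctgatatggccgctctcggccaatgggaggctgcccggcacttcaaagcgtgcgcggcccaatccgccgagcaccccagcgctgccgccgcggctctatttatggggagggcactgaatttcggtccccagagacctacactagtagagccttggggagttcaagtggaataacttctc
MIXL1: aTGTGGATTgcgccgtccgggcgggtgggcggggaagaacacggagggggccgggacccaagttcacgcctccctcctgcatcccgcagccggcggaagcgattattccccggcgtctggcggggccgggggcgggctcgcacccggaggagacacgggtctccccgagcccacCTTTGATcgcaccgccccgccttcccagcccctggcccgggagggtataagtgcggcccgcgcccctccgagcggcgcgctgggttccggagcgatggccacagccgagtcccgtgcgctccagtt
EOMES: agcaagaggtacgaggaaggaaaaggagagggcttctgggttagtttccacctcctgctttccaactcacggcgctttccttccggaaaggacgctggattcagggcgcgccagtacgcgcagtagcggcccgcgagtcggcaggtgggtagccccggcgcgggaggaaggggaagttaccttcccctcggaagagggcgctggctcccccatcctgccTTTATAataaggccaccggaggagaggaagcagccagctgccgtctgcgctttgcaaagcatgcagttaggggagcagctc
GATA6: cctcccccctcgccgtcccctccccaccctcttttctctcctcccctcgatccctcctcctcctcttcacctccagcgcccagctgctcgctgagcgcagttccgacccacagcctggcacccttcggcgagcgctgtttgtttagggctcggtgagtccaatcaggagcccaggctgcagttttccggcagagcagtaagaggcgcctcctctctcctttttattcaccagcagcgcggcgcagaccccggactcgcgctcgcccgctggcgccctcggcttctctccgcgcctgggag

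The motifs searched on both strands were TCACACC for T-box factors (held by 3.45% of 35116 promoters of this length), CAGACA for SMAD proteins (16.9%), AATCCACA for FOXH1 (0.817%), CTTTGAT for TCF/LEF (2.62%), TAATCC for GSC and OTX factors (6.36%), TGTTTAC for FOXA factors (3.42%), AGATAA for GATA factors (10.3%) and TATAAA for the TATA box (11.5%). The MIXL1 window held the FOXH1 motif (as TGTGGATT, at -249) and the TCF/LEF motif (at -76), positions being bases from the start. FOXH1 and TCF/LEF factors are effectors of NODAL and WNT signalling. The TATA box letters stood at -29 of the first TBXT start and at -31 of EOMES, both on the opposite strand (as TTTATA). GSC, whose promoter is not printed, held them at -155. The second TBXT start and GATA6 held none of the 8. These matches describe the letters of the windows and are not evidence of binding.

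MESP1 was the 1 member whose signal rose over the time course. MESP1 (NM_018670, chr15:89732446-89751249 on GRCh38.p14), a basic helix-loop-helix factor of the earliest mesoderm, had signals of 112, 105, 94.3, 61.7, 77.0 and 82.6 on the first slide (3 to 12 h). On the second slide (14 to 42 h) it had 81.7, 112, 149.5, 210.0, 201, 192, 235 and 166, with the 14 h value not well above background. On the third slide (48 to 72 h) it had 172, 169, 245, 637 and 300. The signal was lowest at 8 h, climbed between 16 and 24 h within one slide, stayed between 166 and 235 through 54 h, and climbed again from 60 h. The signals on either side of the first change of slide were 82.6 and 81.7, the latter not well above background. Those on either side of the second were 166 and 172. Slide and time cannot be told apart by these values.

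The mean MESP1 signal was 104 at 3 to 6 h and 360 at 60 to 72 h, which is 3.48-fold or 1.80 log2. Its slope in log2 per hour was 0.0309 with a standard error of 0.0047 (limma adjusted p = 2.24e-05 over 32113 probes). By that test, with a threshold of 0.05, 1 of the 9 members rose and 0 fell, against 24.6% of the 16694 genes tested that rose and 29.8% that fell. At an unadjusted p under 0.05 the limma slopes of 1 member rose and of 1 (FOXA2) fell. MESP1 kept its rise without any 1 array (slopes 0.0260 to 0.0331). With the slide as a block its slope was 0.0387 (adjusted p = 0.0712), past the threshold no longer, and no member passed there, against 10.1% of genes. At an unadjusted p under 0.05, 2 members passed with the block.

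**Figure D1:**
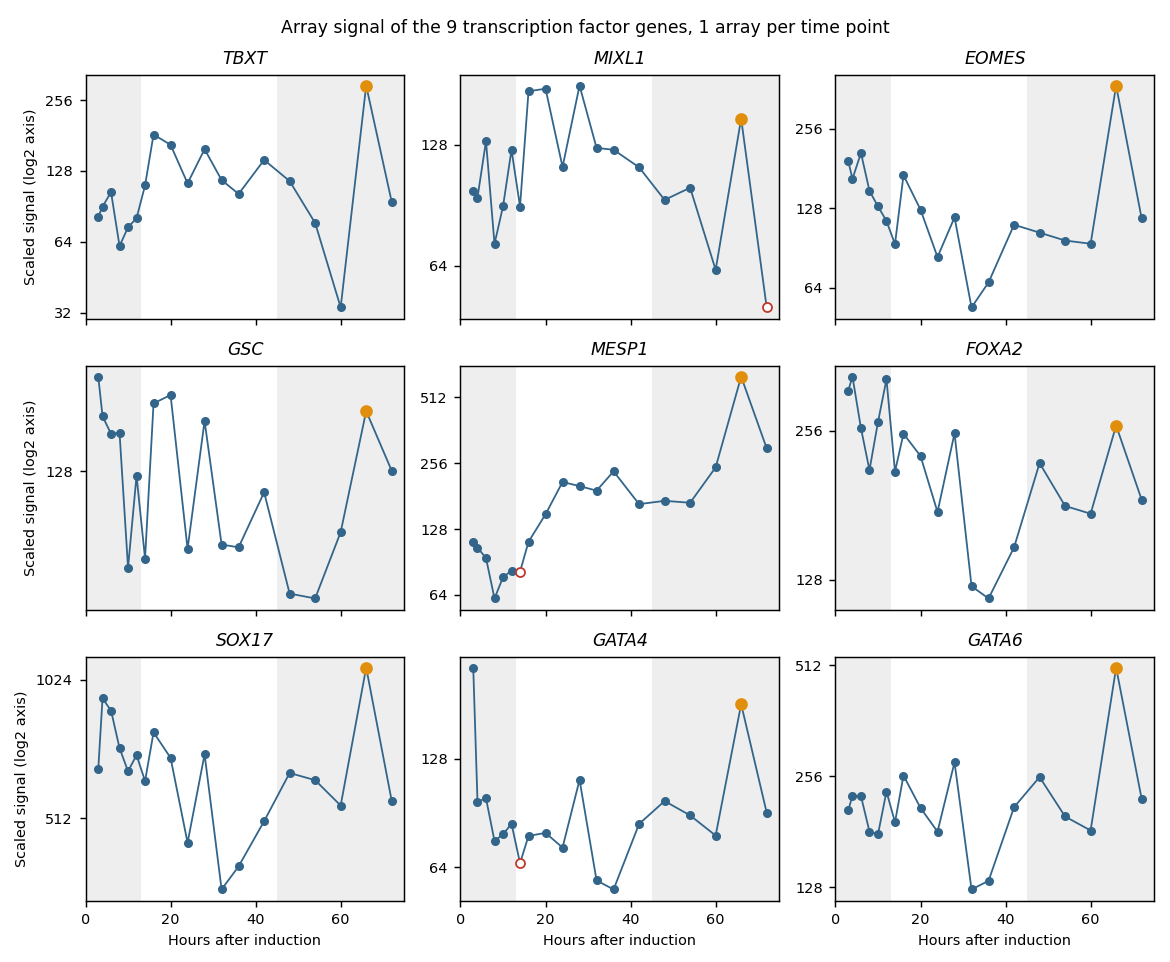
Scaled signal (vertical, log2 axis, own range for each gene) of the 9 transcription factor genes against hours after induction (horizontal), 1 point per array. Shading marks the first and the third slide, orange the 66 h array and an open red circle a spot not well above background. MESP1 climbs from 61.7 at 8 h to 637 at 66 h, FOXA2 and SOX17 dip at 32 and 36 h, and all 9 genes stand above their neighbours at 66 h.

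MESP2, the neighbouring paralogue that acts in somite patterning, moved in the same direction. Its mean was 229 at 3 to 6 h and 624 at 60 to 72 h, a log2 change of 1.45 (slope 0.0197, standard error 0.0032, adjusted p = 4.33e-05, and 0.161 with the slide as a block). MESP2 climbed earlier than MESP1. It was 307 at 12 h and 457 at 14 h, across the change of slide, when MESP1 was still near its lowest signals, and at 66 h MESP2 was 0.22 log2 above the mean of its neighbours and MESP1 1.23.

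TBXT and MIXL1 had no trend past the threshold and a higher mean signal on the second slide. The slide means in order were 81.0, 134 and 96.6 for TBXT and 99.7, 133 and 84.8 for MIXL1. A hump over hours and a difference between slides cannot be told apart here. TBXT (NM_003181, chr6:166157656-166168655), the T-box factor brachyury, had signals of 81.9, 90.3, 104, 61.5, 73.8 and 80.8 from 3 to 12 h. It had 111, 183, 165, 113, 158, 117, 102 and 143 from 14 to 42 h, and 116, 77.0, 33.7, 295 and 94.7 from 48 to 72 h. The mean at 16 and 20 h was 174, against 79.9 from 8 to 14 h and 94.5 at 48 and 54 h. Its signal was thus highest in the middle of the course but for the 66 h array, and its lowest and highest values, 33.7 and 295, lay on consecutive arrays.

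MIXL1 (NM_031944, chr1:226223664-226227060), a homeobox factor of the streak, had signals of 98.1, 94.6, 131, 72.5, 89.9 and 124 from 3 to 12 h. It had 89.8, 174, 177, 113, 180, 126, 125 and 113 from 14 to 42 h, and 93.3, 100.1, 62.5, 149 and 50.4 from 48 to 72 h, the last not well above background. Its 16, 20 and 28 h arrays stood highest, and those of TBXT did so but for 66 h, with a mean of 175 at 16 and 20 h against 92.4 from 8 to 14 h. The 24 h array between them was lower for both genes.

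Neither gene had a slope past the threshold. The slope was 0.0027 (standard error 0.0069, adjusted p = 0.756) for TBXT and -0.0063 (standard error 0.0049, adjusted p = 0.292) for MIXL1. A cubic curve over hours, which can follow a hump, gave adjusted p = 0.371 for TBXT and 0.0668 for MIXL1. Without the 66 h array, a choice made here because of the values on it, the curve passed for both, at 0.0449 for TBXT and 0.00204 for MIXL1. With all 19 arrays and the slide as a block it passed for neither (limma adjusted p 0.839 for TBXT and 0.777 for MIXL1). Across the 36 pairs of members, these 2 genes had a Pearson r of 0.72 over the 19 arrays (permutation p = 0.00065, adjusted over the 36 pairs 0.00292) and a Spearman rho of 0.72 (permutation p = 0.00068, adjusted 0.00408). Without 60 and 66 h, the arrays farthest from the median of TBXT, r was 0.69. Within the slides it was 0.82, 0.80 and 0.71, and on the third slide without 66 h 0.29 over 4 arrays. The permutations treat the arrays as exchangeable, which successive times are not.

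EOMES, GSC, FOXA2 and SOX17 were lower around 32 to 54 h than at the start and in part higher again later. EOMES (NM_005442, chr3:27715953-27722713), the T-box factor eomesodermin, had signals of 193, 165, 207, 149, 130.1 and 114.5 from 3 to 12 h. It had 93.6, 171, 126, 83.7, 118, 54.0, 67.1 and 111 from 14 to 42 h, and 104, 96.6, 94.0, 372 and 117 from 48 to 72 h. But for 66 h its highest signals lay at 6 and 3 h, and the lowest lay at 32 h. Its slope on the first slide was -0.0820 log2 per hour (unadjusted p = 0.00877, adjusted 0.0868).

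GSC (NM_173849, chr14:94768223-94770113), the homeobox factor goosecoid, had 189, 160.5, 149, 149.9, 86.0 and 126 from 3 to 12 h. It had 89.3, 169, 175, 93.0, 157, 94.7, 93.6 and 117 from 14 to 42 h, and 77.4, 75.9, 99.6, 164 and 128 from 48 to 72 h. GSC was highest at the first array and lowest at 54 h, and its 16, 20 and 28 h arrays stood out as those of TBXT and MIXL1 did. Its slope on the third slide, 0.0428 (unadjusted p = 0.0177, adjusted 0.117), ran opposite to its slope from 3 to 54 h.

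FOXA2 (NM_021784, chr20:22580998-22585490), a forkhead factor of endoderm, node and floor plate, had 308, 329, 259, 213, 267 and 325 from 3 to 12 h. It had 212, 253, 228, 175, 253, 124, 117 and 149 from 14 to 42 h, and 220.2, 180.4, 174, 262 and 186 from 48 to 72 h. The mean of 32 and 36 h was 121, against 297 at 3 to 6 h and 204 at 60 to 72 h. SOX17 (NM_022454, on chromosome 8), an SRY-related factor of endoderm and also of endothelium and germ cells, ranged from 359 at 32 h to 1088 at 66 h with a median of 648. Its second highest signal was 933 at 4 h, and the mean of 32 and 36 h was 380, against 813 at 3 to 6 h and 631 at 48 and 54 h.

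None of the 4 had a slope past the threshold over the 19 arrays. FOXA2 was nearest to it, with -0.0093 (standard error 0.0040, unadjusted p = 0.0297, adjusted p = 0.0547), followed by GSC with -0.0065 (standard error 0.0043, adjusted p = 0.212), SOX17 with -0.0038 (standard error 0.0041, adjusted p = 0.456) and EOMES with -0.0033 (standard error 0.0064, adjusted p = 0.684). Over the arrays from 3 to 54 h 4 of the 9 members fell, against 27.5% of genes that fell over that span. They were these 4, with slopes of -0.0208 for EOMES (limma adjusted p = 0.0143), -0.0187 for FOXA2 (0.00921), -0.0179 for GSC (0.0145) and -0.0126 for SOX17 (0.0492). The 4 are described together because of these same values, so their shared fall is no separate result. Without the 66 h array alone, FOXA2 fell by 0.0126 per hour (adjusted p = 0.0138) and EOMES by 0.0124 (adjusted p = 0.0441), 2 of the 9 members against 28.7% of genes that fell without it. With the array median as the scaling 3 members fell (MIXL1, GSC and FOXA2), against 44.5% of genes, and scaled to the spike-in RNA 3 fell (GSC, FOXA2 and SOX17), against 44.6%. Both scalings lower the median of all genes late in the course, as given below. FOXA2 also passed without the 32 h array (adjusted p = 0.0409) or the 36 h array (0.0467). The cubic curve passed for EOMES (adjusted p = 0.0261) and FOXA2 (0.00822), but not for SOX17 (0.0675) or GSC (0.0996). With the slide as a block it passed for neither EOMES (0.275) nor FOXA2 (0.130).

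**Figure D2:**
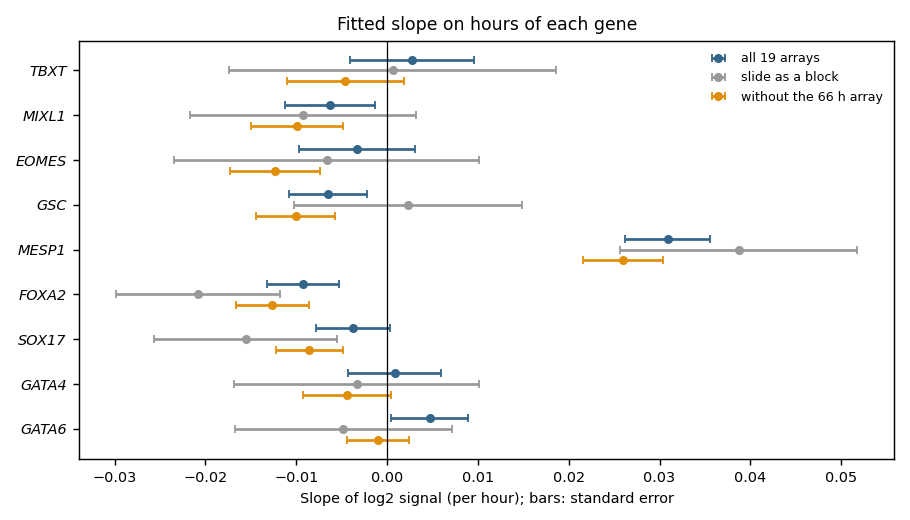
Fitted slope of log2 signal per hour (horizontal) of each of the 9 genes, with bars of 1 standard error, for all 19 arrays (blue), with the slide as a block (grey) and without the 66 h array (orange). MESP1 lies well to the right of 0 in each fit (0.0309, 0.0387 and 0.0260), and the block widens every bar.

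GATA4 and GATA6, zinc finger factors of endoderm and heart, had no slope past the threshold at their brightest probes. GATA6 (NM_005257, chr18:22169589-22202528) ranged from 126 at 32 h to 504 at 66 h with a median of 210.1, and apart from 66 h its highest signal was 279, at 28 h. Its mean was 220 at 3 to 6 h and 274 at 60 to 72 h, and its slope was 0.0047 (standard error 0.0042, adjusted p = 0.366). Like FOXA2 and SOX17 it dipped at 32 and 36 h, to a mean of 130 from 229 over 16 to 28 h.

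GATA4 (NM_002052, on chromosome 8) had 3 probes, which differed at the first time point. The brightest read 229 at 3 h, its highest value, and then 55.5 to 112 on the later arrays but for 181 at 66 h. The second probe read 48.4 at 3 h and the third 18.7, not well above background, so the high 3 h value was seen by 1 of 3 probes. At 66 h the 3 probes read 181, 162 and 68.6, which were 1.10, 0.97 and 1.42 log2 above the mean of 60 and 72 h. The slope of the brightest probe was 0.0008 (standard error 0.0051, adjusted p = 0.906), and its cubic curve had an adjusted p of 0.0431. The curves of the other probes did not pass (0.0612 and 0.105), and that of the brightest did not pass without the 3 h array. The second had a slope of 0.0090 (adjusted p = 0.0542), and the third, well above background on 7 arrays, had one of 0.0152 (adjusted p = 0.0337).

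In total the cubic curve passed for 4 members (EOMES, MESP1, FOXA2 and GATA4), against 79.6% of genes, a smaller share than in the whole table. With the slide as a block it passed for none of the 9 (limma adjusted p 0.102 for MESP1 and 0.323 for GATA4), against 36.1% of genes. Without 66 h it passed for 6, against 77.5%, and without the 6, 32 or 36 h array for 2 (MESP1 and FOXA2). Within the slides no member had a slope past the limma adjusted threshold, against 5.13%, 7.33% and 1.05% of genes on the 3 slides in order. At an unadjusted p under 0.05 the slope passed for 2, 2 and 1. The late minus early change had a median of -0.23 log2 over the 9 members, with all genes at -0.05. The array median as the scaling put all genes at -0.42 and the spike-in RNA at -0.70, so small signed changes here are relative to the 75th percentile. Directions of the TBXT, GATA4 and GATA6 slopes turned to negative under both of these scalings, with none past the threshold.

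All 9 members were higher on the 66 h array than on those beside it. Against the mean of 60 and 72 h on the log2 scale, 6 of the 9 were at least 2-fold higher, against 1.2% of 16691 genes. This comparison was chosen after the values had been seen, rests on 1 array, and has no replicate, so it is a description with no test. TBXT went from 33.7 at 60 h to 295 at 66 h and 94.7 at 72 h, which is 5.22-fold above the mean of its neighbours. EOMES went from 94.0 to 372 and 117 (3.55-fold). MIXL1 went from 62.5 to 149 and 50.4, the last not well above background (2.65-fold, and 2.38-fold against 60 h alone). The fold of MIXL1 is the least certain of the 6. GATA6 went from 182 to 504 and 222 (2.50-fold). MESP1, which rose over the whole course, went from 245 to 637 and 300 (2.35-fold). GATA4 went from 78.3 to 181 and 90.7 (2.15-fold). The other 3 members were under 2-fold, SOX17 only just. SOX17 was 1.97-fold, FOXA2 1.46-fold and GSC 1.45-fold above. The scanner's error of a spot was 10.0% to 27.8% of the signal for these probes, an error that leaves out the spread between cultures.

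Of the 19 arrays, 66 h held the highest signal of 5 members (TBXT, EOMES, MESP1, SOX17 and GATA6), against 8.71% of genes. The median departure at 66 h was 1.23 log2 for the members and 0.01 for all genes. Scaled to the spike-in RNA, which puts all genes at -0.34, TBXT, MIXL1 and EOMES were still at least 2-fold higher (2.03, 1.05 and 1.47 log2). The share of all genes was 0.479% there, and the other 6 members were 0.18 to 0.97 higher. With normexp and quantile normalization 4 were at least 2-fold higher (TBXT, EOMES, MESP1 and GATA6), against 0.186% of genes, and MIXL1 was 0.65 higher.

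The members also moved together on other arrays. Against the mean of the arrays before and after, all 9 were higher at 16 h (median 0.36 log2), at 28 h (0.77) and at 66 h (1.23), and all 9 were lower at 14 h (-0.35), 32 h (-0.42) and 60 h (-0.70). At 24 h 8 of 9 were lower (-0.51), MESP1 being the exception. The median of all genes ran from -0.054 (14 h) to 0.049 (12 h) over these arrays. Successive departures share arrays, since a high 28 h array lowers both of its neighbours' departures, so they are not separate observations. The 14 h array, where MESP1 and GATA4 were not well above background, had the smallest share of probes above background, and the part of array quality in these shared movements was not tested.

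Genes of the same pathways were also raised at 66 h. The genes named for it were chosen after their values were seen. Of 26 other streak and early mesoderm genes tested, 9 were at least 2-fold above the mean of 60 and 72 h, against 1.2% of all genes. HAND1, a mesoderm and amnion factor, went from 115 at 60 h to 641 and back to 179, DKK1, a WNT inhibitor, from 22.5 to 67.5 and 13.7, and SP5, a WNT target, from 1444 to 4566 and 1777. Of 22 definitive endoderm genes 6 were, among them CER1 (23.1, 69.0 and 13.5) and AFP (164, 406 and 144). Among 12 extraembryonic endoderm genes 2 were, APOA1 and IHH, and of 25 genes of the upstream signals 2 were, the ligand genes NODAL (558, 2301 and 1097) and WNT3 (366, 900 and 383). NODAL and WNT3 are also counted among the 9 streak genes, and FGF17 in both the streak and the endoderm counts. DKK1, CER1 and FGF17 were well above background on 1 of the 60, 66 and 72 h arrays, so their folds are uncertain.

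Markers of other cell types were read in the same way. Of 9 amnion and trophoblast markers tested 6 were at least 2-fold higher at 66 h (CDX2, HAND1, CGA, ISL1, GATA3 and TFAP2A), and the summed signal of the list was 10226 at 60 h, 14341 at 66 h and 13657 at 72 h. Most of that sum was KRT7 (8949, 12156 and 12585), which did not peak at 66 h, and without it the sum was 1276, 2185 and 1072. VTCN1, another marker of the list, was well above background on 1 array. Of the 60, 66 and 72 h arrays, CDX2 was well above background on 1, and CGA, ISL1 and TFAP2A on 2, so their folds are uncertain. HAND1 and CDX2 are also counted in the streak and the endoderm lists above. Of the 9 undifferentiated cell markers, 6 fibroblast markers and 5 neuroectoderm markers tested, 0 were at least 2-fold higher. Since 1.2% of all genes were, a count of 0 in lists this small does not set them apart. Of the fibroblast list, COL1A1, COL1A2, THY1, S100A4 and VIM, which other cells also make, were well above background on all 19 arrays and DCN on 9. COL1A2 and S100A4 rose by the limma slope, against 24.6% of all genes that rose. Neither call held with the slide as a block (limma adjusted p 0.198 for COL1A2). LUM and COL3A1 were above background on 1 array and POSTN on 2. The part of amnion- and trophoblast-like cells in the 66 h values of the members was not tested.

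**Figure D3:**
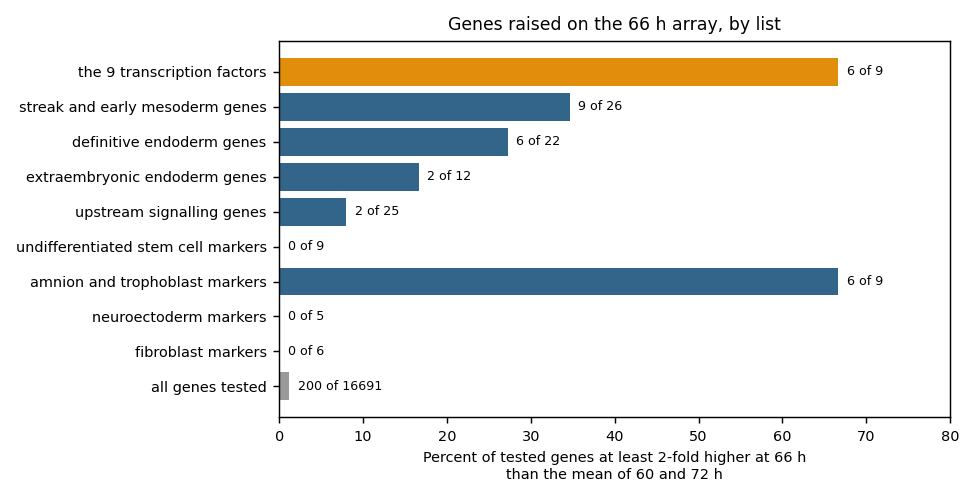
Percent of tested genes (horizontal) that were at least 2-fold higher at 66 h than the mean of 60 and 72 h, for the 9 transcription factor genes (orange), the other gene lists (blue) and all genes tested (grey), with counts beside the bars. The 9 factors and the amnion and trophoblast markers each have 6 of 9, and all genes 200 of 16691. The lists share some of the raised genes (HAND1, CDX2, FGF17, NODAL and WNT3), which are counted in each list that holds them.

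EOMES and SOX17 had the highest correlation of any pair of members. Over the 19 arrays, EOMES had its highest Pearson r among 16046 genes with SOX17 and SOX17 with EOMES (r = 0.90), and without 66 h r was 0.88. Among the 36 pairs of members the permutation p was 1e-05 (the smallest 100000 permutations can give, adjusted 0.00036), with a Spearman rho of 0.89 (permutation p = 1e-05, adjusted 0.00036). Without 66 and 32 h, the arrays farthest from the median of EOMES, r was 0.83. Within the slides r was 0.44, 0.93 and 0.96, and on the third slide without 66 h it was -0.11 over 4 arrays, so on the third slide the relation rested on the 66 h array. Both genes were lowest at 32 h and highest at 66 h.

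After SOX17, the genes most like EOMES were SPARCL1 (r = 0.88) and CCKBR (0.86), and after EOMES those most like SOX17 were CST1 (0.89) and FZD5 (0.86), a WNT receptor gene. FOXA2 was most like MTA1 (0.86) and FOXQ1 (0.85), and GATA6 most like HAS2 (0.89) and ANXA9 (0.87). For GATA4 the nearest were RAB17 (0.83) and S100A11 (0.82), with GATA3 next (0.80). MIXL1 was nearest to ABCG5 (0.84), GSC to PCDH20 (0.78) and TBXT to ZNF420 (0.77). MESP1 was nearest to LRRIQ3 (0.94). Genes that trend in the same direction can correlate through time, and the part of time in this value was not tested. These values are descriptions over arrays that share slides and the order of time.

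Other pairs of members were also correlated, and how often pairs of other genes are was not computed. Of the 36 pairs, 13 had both measures past an adjusted permutation p of 0.05. SOX17 and GATA6 (r = 0.80, rho = 0.70) and EOMES and GATA4 (r = 0.76, rho = 0.66) were among them. Described further here, and also among them, are FOXA2 and SOX17 (r = 0.84, rho = 0.83), EOMES and GATA6 (r = 0.81, rho = 0.59), and EOMES and FOXA2 (r = 0.72, rho = 0.78). Without the 2 arrays farthest from the median of the first gene of each pair, r was 0.71, 0.51 and 0.74. Within the slides r was 0.12, 0.95 and 0.92 for FOXA2 and SOX17, 0.20, 0.92 and 0.97 for EOMES and GATA6, and -0.09, 0.84 and 0.86 for EOMES and FOXA2. On the third slide without 66 h it was 0.73, 0.59 and 0.30 in the same order. The relations were thus weakest on the first slide, and those on the third rested in part on the 66 h array. MESP1 had no pair past the threshold. Its r with EOMES was 0.04, and -0.55 without 66 h, where EOMES fell and MESP1 rose.

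The other genes of these pathways, from lists that hold no member, changed over the course in both directions, and signals are given as means at 3 to 6 h and at 60 to 72 h. Of the 26 streak and early mesoderm genes tested, of 30, 5 rose and 6 fell, shares near or below the 24.6% and 29.8% of all genes. HAND1 rose from 48.0 to 236 (2.30 log2, adjusted p = 8.07e-05), KDR, the VEGF receptor of early vascular mesoderm, from 2364 to 5969 (1.34 log2, adjusted p = 1.03e-05) and TBX6, a T-box factor of paraxial mesoderm, from 47.4 to 119 (1.33 log2, adjusted p = 0.00104), and MESP2 and CDX1 rose as well. FGF8 fell by 1.51 log2 (adjusted p = 0.00125) and WNT3 fell by 1.45 (adjusted p = 0.00198), and NODAL, CDH2, FST and BMP4 fell as well. With the slide as a block none of these 11 calls held, with limma adjusted p of 0.941 for FGF8, 0.527 for WNT3 and 0.625 for TBX6.

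Of the 22 definitive endoderm genes tested, of 25, 4 rose and 8 fell, again near the shares of all genes. TTR, a secreted carrier protein made by liver and visceral endoderm, rose from 37.8 to 908 (4.58 log2, adjusted p = 0.000252) and ONECUT1, a hepatic factor, from 155 to 381 (1.29 log2, adjusted p = 0.00065). AFP fell by 2.86 log2 (adjusted p = 5.33e-08), and CER1, a secreted NODAL inhibitor, fell by 2.53 (adjusted p = 4.19e-05). Of 12 tested extraembryonic endoderm genes, of 13, 4 rose and 3 fell, with APOA1 up from 398 to 2375 (2.58 log2, adjusted p = 1.88e-06). Of the 25 upstream signalling genes 1 rose, FOXH1, and 9 fell. For both of these lists the shares of all genes were 24.6% rising and 29.8% falling. With the slide as a block the adjusted p was 0.535 for TTR, 0.159 for APOA1, 0.152 for HAND1, 0.217 for KDR, 0.400 for CER1 and 0.219 for ONECUT1, and 0.00943 for AFP. Of the 12 calls among the definitive endoderm genes 3 held with the block (CLDN6, AFP and LEFTY2). Of the 7 extraembryonic endoderm calls 1 held (DAB2), and of the 10 upstream calls 2 held (GDF3 and TCF7L1).

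Relatives of the members had mixed courses. Of the 17 T-box genes, which include the members TBXT and EOMES, 9 were tested. TBX6, TBX10 and TBX19 rose and TBX22 fell, against 24.6% of all genes that rose and 29.8% that fell. TBX4, TBX5, TBX15 and TBX18 were above background on no array. In the GATA family, GATA3 was 1.36 log2 above its neighbours at 66 h, as GATA4 (1.10) and GATA6 (1.32) were, and GATA5 (-0.01) and GATA2 (0.04) were not. GATA1, the erythroid member, was above background on no array. Of the FOXA genes, FOXA1 was above background on no array and FOXA3 fell from 1521 to 913 (adjusted p = 0.00629). SOX7 and SOX18, the other SOX F genes, were above background on 2 arrays each. OTX2, a GSC relative of anterior epiblast and neuroectoderm, fell from 468 to 215 (adjusted p = 0.016). With the slide as a block none of these calls held, with adjusted p of 0.625 for TBX6, 0.659 for TBX10, 0.545 for TBX19, 0.275 for TBX22, 0.664 for FOXA3 and 0.458 for OTX2.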

How the data were processed

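The authors deposited, for each of 19 one-colour arrays, the output of Agilent Feature Extraction 10.10.1.1 (named in the submitters' processing notes), in which each spot has a background-subtracted processed intensity, a raw median pixel intensity and flags. They also deposited a table of the same processed intensity times 1 factor per array (0.905 to 1.38), blank where a spot is not well above background; the rule behind the factors is not given in the sources used here. No spot was saturated. Flagged spots (0.632%) and control spots were left out, repeated spots were averaged by probe, and the 75th percentile of each array was subtracted from the log2 of the deposited intensity. Probes were named through RefSeq accessions (28174 of 50683 probes, GRCh38.p14), and a gene was read by the probe with the highest mean signal. Coordinates are of the RefSeq gene.

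Slopes on hours and cubic curves came from limma 3.58.1 (R 4.3.3), run on the 32113 probes that 5 or more arrays called above background, with Benjamini-Hochberg adjustment, and the fit was tested on simulated data. A cubic can miss a change held by 1 or 2 arrays. Tables were made with Python 3.11.15. Pairs were tested with two-sided permutation tests of 100000 resamples. The pairing of 66 h with 60 and 72 h was added after the values were seen. Members and gene lists were chosen with earlier results of these data known. All members are named. The genes most like a member were the 3 with the highest Pearson r among genes that 10 or more arrays called above background. Windows of the 3 earliest and 3 latest arrays hold different times and are not replicates. The number of arrays limits the precision.

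Alternatives were the array median, the spike-in RNA (7 of 10 levels), normexp (offset 50, on median pixel intensities since the files hold no mean) with quantile normalization, the deposited table, other filters on dim probes, log2 hours, a slide block, the span from 3 to 54 h, averaging a gene's probes, 72 h against 3 h, and each array left out in turn.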

Additional observations from a re-analysis of the deposited data

How the results depend on the processing

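No paired analysis was possible because 1 array was made per time point. Over hours MESP1 rose under each scaling, filter, span and left-out array that tested it, and did not pass with a slide block or within any 1 slide, where its slope was -0.0623, 0.0372 and 0.0586 in slide order with no adjusted p past the threshold. Rising members numbered 0 with the block and 0 among the 6 members above background on all 19 arrays, which leave MESP1 out by construction, and 1 without any single array. Falling members (0 of 9) numbered 3 with the array median (MIXL1, GSC and FOXA2), 3 with normexp (the same genes), 3 with the spike-in RNA (GSC, FOXA2 and SOX17), 4 over 3 to 54 h (EOMES, GSC, FOXA2 and SOX17), 1 each with the deposited table, the filter on all 19 arrays and log2 hours (FOXA2), and 0 to 2 with 1 array left out. Members with a curve (4) numbered 7 with the array median and 7 with normexp, 2 with the filter on all 19 arrays, 0 with the slide as a block and 2 to 6 with 1 array left out, GATA4 not being among them without the 3 h array. Members at least 2-fold higher at 66 h (6) numbered 3 with the spike-in RNA, against 0.479% of genes, and 4 with normexp, against 0.186%. They numbered 5 in the deposited table, where MIXL1 is blank at 72 h, against 0.406% of genes. These alternatives to the 66 h value were chosen after seeing the data.

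Slopes that turned sign, none past the threshold on either side, were those of TBXT (array median -0.0025, spike-in RNA -0.0057), MIXL1 (3 to 54 h, 0.0022), GSC (block, 0.0023), GATA6 (array median -0.000578, spike-in RNA -0.0038, block -0.0048, 3 to 54 h -0.0023) and GATA4 (array median -0.0044, spike-in RNA -0.0076, normexp -0.0026, deposited table -0.0011, block -0.0033, 3 to 54 h -0.0080, and -0.0796 per doubling of hours). With each array left out, slopes ran from -0.0046 to 0.0099 for TBXT, -0.0044 to 0.0055 for GATA4 and -0.0010 to 0.0062 for GATA6, negative without 66 h. The cause of these changes was not tested. Signals near the detection limit (GATA4, MIXL1 and MESP1 on some arrays) are the least certain.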
